A study of Mus musculus with 4 samples.

Results

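The 47 genes described here encode the DNA replication machinery of the mouse. They are the rows of the deposited expression table named for subunits of the origin recognition complex, licensing factors, the MCM helicase and its activators, polymerases, clamp and clamp loader, and enzymes of nucleotide synthesis. They were chosen by name, out of 24340 genes in the table. All 47 were present, and all 47 had a mean of 1 FPKM or more across the samples, as did 10471 genes in all, called measured genes below. FPKM is the number of sequenced fragments per kilobase of transcript and 1000000 fragments.

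RNA had been measured in lineage-negative, Kit-positive bone marrow cells of C57BL/6 mice, in 4 libraries of 1 per group. All 4 groups carried JAK2V617F, an activated form of the kinase JAK2. They were Tet2+/+ control, Tet2+/+ with ruxolitinib, Tet2-/- control and Tet2-/- with ruxolitinib, called wild type and knockout below. Tet2 encodes an enzyme that oxidises methylated cytosine, and ruxolitinib inhibits the kinases JAK1 and JAK2. Per the series' design text, Tet2 was inactivated conditionally in the blood system and the cells were treated after they had been taken from the marrow. That text speaks of a cross to Flt3ITD mice, whereas all 4 sample labels give JAK2V617F, and the labels are followed here. The sources used here do not give the driver of the inactivation, the age or number of the animals, the dose or the time of treatment. With 1 library per group there is no replicate check, and no p-value was computed. The 4 values of a gene are given with wild type before knockout and, within each genotype, control before ruxolitinib.

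Replication starts when the origin recognition complex binds DNA and, with Cdc6 and Cdt1, loads the MCM helicase in an inactive form during G1. In S phase the kinases of the cell cycle, Cdc45 and the GINS complex turn it into a moving helicase, and polymerases copy each strand behind it. Many of these genes are known targets of the E2F transcription factors and are transcribed mainly around the start of S phase, so that in a mixed population their summed RNA depends on the share of cycling cells.

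Tet2 itself was at 4.69, 5.05, 3.62 and 4.39 FPKM, a value of the whole gene that does not isolate a deleted exon. The steps between the lowest values gave an estimated depth of 44100000 to 55000000 fragments per library. Xist was at 0.0241, 0.0309, 53.2 and 62.2 FPKM and the Y-linked gene Ddx3y at 21.3, 18.7, 0.0288 and 0.00886, so sex and genotype cannot be told apart in these libraries. Kit, used in the sort, was at 487.4, 647.0, 421.0 and 561.8 FPKM, and the myeloid progenitor gene Mpo did not exceed 1.31. The mast cell list of 12 genes, Kit included, summed to 27579, 31163, 19371 and 23130 FPKM, with Cpa3 listed at 0 in all 4. Of its 11 measured genes, 10 were lower in the knockout without drug and 6 with drug. Cma1 of this list was at 13677, 15834, 8289 and 10118 FPKM, and Fcer1a at 5594, 6008, 3451 and 3648. Mast cell RNA was thus abundant in all 4 libraries, whatever the stated sort. The ratios below cannot be taken as those of primitive progenitors alone. B cell markers did not exceed a sum of 0.129 FPKM, and of 9 neutrophil and granulocyte progenitor genes only Ctsg was measured, at 90.4, 108.2, 27.1 and 27.3 FPKM. Erythroid markers summed to 42.0, 29.0, 61.3 and 40.0 FPKM over 7 genes, highest in the knockout control. The 3 basophil markers summed to 412.4, 362.9, 562.3 and 548.0 FPKM, and 2 of them, Mcpt8 and Prss34, passed 1.5-fold upward in the knockout without and with drug. The other, Cd200r3, was at 317.8, 266.8, 274.4 and 281.4 FPKM. Its log2 ratio, knockout over wild type, was -0.21 without drug and 0.08 with drug. Megakaryocyte markers summed to 669.3, 750.3, 447.1 and 536.9 FPKM, stem and progenitor markers to 1292, 1514, 940.7 and 1257, and monocyte and macrophage markers to 44.7, 40.9, 29.0 and 31.2. In a bulk sample, fewer cells of a type and less RNA per cell cannot be told apart.

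Without drug, nearly the whole machinery was higher in the knockout library than in the wild-type library. The licensing factors Cdt1 and Cdc6, the helicase activator Cdc45 and the primase subunit Prim1 stood at the top, at 1.86-fold to 1.87-fold, and the clamp loader subunit Rfc2 was alone in being lower. Of the 47 genes, 34 were higher by 1.5-fold or more and 0 were lower by that much, beside 3.88% and 5.06% of measured genes. With values rescaled to an equal sum per library (TPM), the split of measured genes at 1.5-fold went from 406 higher and 530 lower to 846 and 423, their median moved up by 0.15, and the 47 genes lay 0.72 above that median. The ratio is that of FPKM + 1, so differences of low genes come out too small. The knockout value was the higher for 46 of the 47, beside 50.4% of measured genes. The median log2 ratio of the 47 genes was 0.69, between quartiles of 0.58 and 0.77, beside a median of 0.00 over all measured genes. On this scale none of the 47 was 2-fold higher, as 1.19% of measured genes were, or 1.18% with drug, where again no member was. With a pseudocount of 0.1, or none, 1 gene passed 2-fold without drug, Cdc6 at 2.02-fold or 2.05-fold, and 0 with drug. The authors' deposited table gave a q-value of at most 0.05 to 42 of the 47, all higher, beside 9.37% higher and 9.68% lower among the genes tested there. Such q-values compare 2 libraries and not 2 genotypes.

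The order of the libraries was nearly the same from gene to gene. For 46 of 47 genes both knockout libraries lay above both wild-type libraries, an order that 28.2% of measured genes showed. The wild-type control was the lowest library for 41 genes, beside 23.5% of measured genes. The highest was the knockout ruxolitinib library for 25 genes, beside 19.8%, and the knockout control for 21, beside 31.8%. Leaving Rfc2 out, the 46 values summed to 1382 and 1547 FPKM in wild type and to 2235 and 2250 in knockout, control first. Marker sums of mast cells, basophils, megakaryocytes, stem and progenitor cells, monocytes and erythroid cells, and the level of Ctsg, differed between the libraries as given above, and their part in this difference was not tested.

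**Figure D1:**
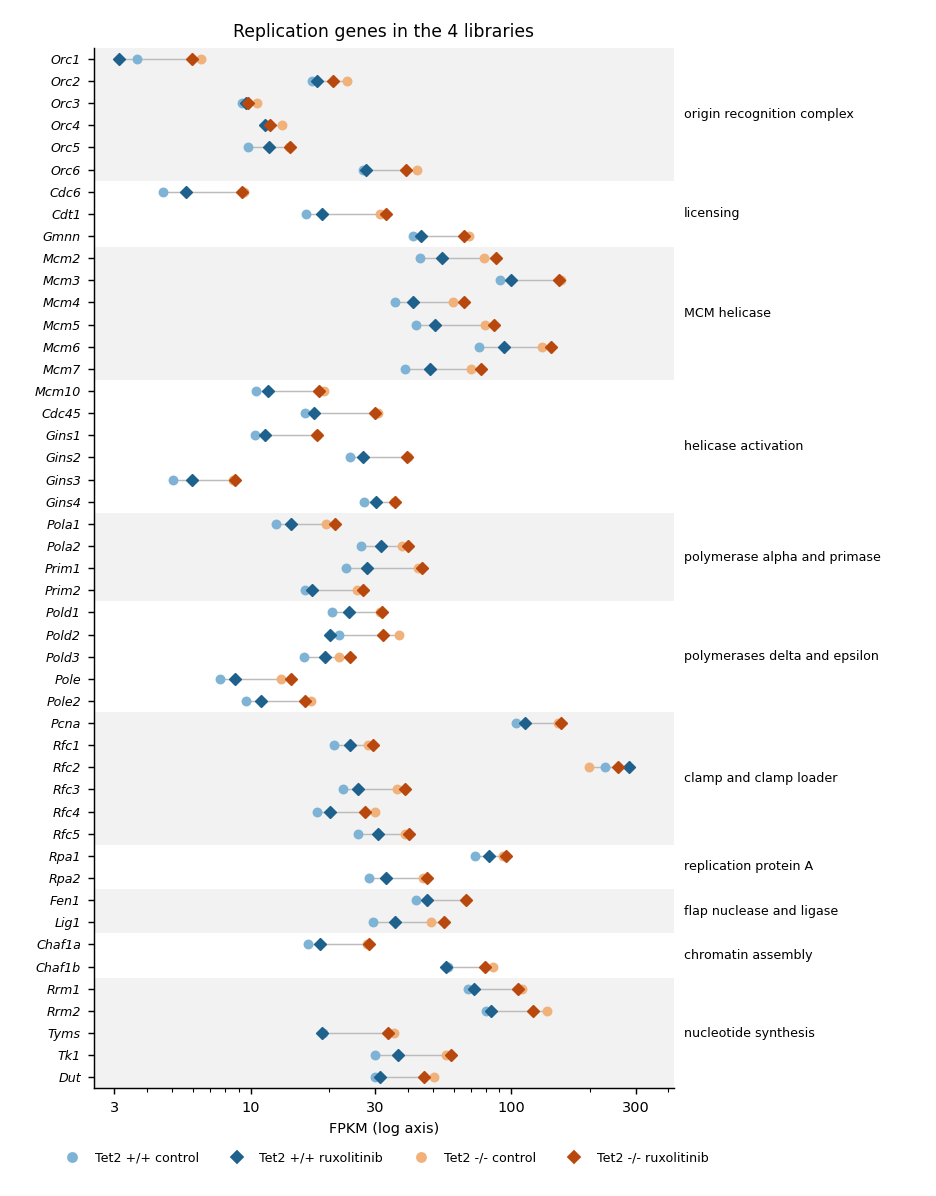
FPKM on a log axis of each of the 47 replication genes in the 4 libraries, grouped by subcomplex; circles are control and diamonds ruxolitinib libraries, blue for Tet2+/+ and orange for Tet2-/-, and each point is 1 library. The orange points lie to the right of both blue points for 46 of 47 genes, the exception being Rfc2.

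The promoters of the 47 genes were searched for the words that E2F factors are known to bind. The genes were chosen by name and many are known E2F targets, so the share with a word does not depend on the ratios. RefSeq promoters (GRCm38.p6, the assembly behind mm10), from 250 bases before to 50 bases after the start, were found for 39 of the 47 genes. The search took exact matches on both strands to TTTCCCGC, TTTGGCGC, TTTCGCGC and TTTGCCGC, which can overlap each other on opposite strands. At least 1 word was present in 15 of 39 genes, or 38.5%, beside 2.26% of all 32851 promoters in the table and 5.0% of the 7963 measured genes with a promoter. The 15 were Cdc6, Cdt1, Gins3, Lig1, Mcm3, Mcm5, Mcm6, Mcm7, Orc1, Orc3, Pola1, Pold1, Pold3, Pole2 and Rfc3. A match is a description of the sequence and does not show that a factor binds there.

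The 170 bases before the start are shown for 4 of them, 5′ to 3′ on the gene's own strand, with the E2F words in capitals. Mcm5 and Mcm6 are helicase genes with a word before the start. Every helicase gene was at least 1.5-fold higher in the knockout, also Mcm2, which had a promoter without a word. Log2 ratios of Mcm2 were 0.81 without and 0.67 with drug, beside 0.79 and 0.60 for Mcm6. No promoter was found for Mcm4. Orc1 and Orc3 are subunits of 1 complex that both hold a word and had unlike ratios. In Mcm5 and in the distal site of Mcm6, 2 words overlap on opposite strands. The stretches lie at chr8:75109339-75109508 on the plus strand (Mcm5), chr1:128359706-128359875 on the minus strand (Mcm6), chr4:108579284-108579453 on the plus strand (Orc1) and chr4:34614943-34615112 on the minus strand (Orc3).
Mcm5: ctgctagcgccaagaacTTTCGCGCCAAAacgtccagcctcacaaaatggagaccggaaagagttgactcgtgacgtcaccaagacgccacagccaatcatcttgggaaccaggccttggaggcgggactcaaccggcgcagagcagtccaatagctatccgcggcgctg
Mcm6: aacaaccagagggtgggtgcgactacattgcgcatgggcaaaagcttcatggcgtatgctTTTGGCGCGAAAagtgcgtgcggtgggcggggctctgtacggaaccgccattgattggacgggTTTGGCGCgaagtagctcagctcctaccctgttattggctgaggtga
Orc1: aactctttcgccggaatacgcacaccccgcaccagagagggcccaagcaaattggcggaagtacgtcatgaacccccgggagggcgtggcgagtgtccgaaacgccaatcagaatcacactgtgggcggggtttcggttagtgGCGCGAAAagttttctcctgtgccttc
Orc3: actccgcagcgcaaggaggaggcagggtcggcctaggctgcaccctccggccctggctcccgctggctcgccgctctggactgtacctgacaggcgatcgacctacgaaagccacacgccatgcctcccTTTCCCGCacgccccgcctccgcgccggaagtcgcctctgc

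Genes with and without a word had overlapping ratios. The 15 genes with a word had a median log2 ratio, knockout over wild type without drug, of 0.73, from 0.17 to 0.90. The 24 genes with a promoter and no word had a median of 0.68, also from 0.17 to 0.89, among them Cdc45, Prim1 and Tyms near the top of the range. With drug the medians were 0.60, from 0.01 to 0.78, and 0.50, from 0.06 to 0.81. Of the genes with a word, 12 of 15 passed 1.5-fold upward without drug and 9 with drug, and of those without, 16 and 8 of 24. Across all measured genes, members included, 398 had a word and 7565 had a promoter without one. Without drug, 8.79% and 2.88% of these passed 1.5-fold on the higher side, and with drug 4.02% and 2.19%. Of the 35 genes with a word that passed without drug, 12 were members, and of the 16 with drug, 9. Of the 218 and 166 genes without a word that passed, 16 and 8 were members. Among other words, CCAAT, bound by NF-Y, was present in 59.0% of the 39 genes and 43.4% of measured genes. The GC box GGGCGG was present in 76.9% and 71.0%, and the cell cycle homology word TTTGAA in 12.8% and 14.2%. These letters were looked for in a window of 300 bases only.

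**Figure D2:**
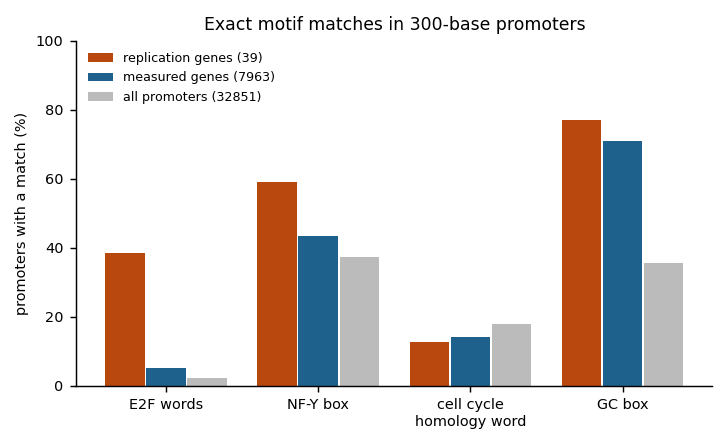
Share (%) of genes, or of promoters for the whole table, with at least 1 exact match to the E2F words, the NF-Y box, the cell cycle homology word and the GC box, in 39 replication genes, 7963 measured genes and all 32851 promoters of the RefSeq table. The bars for E2F words stand at 38.5%, 5.0% and 2.26%, while those for the GC box stand at 76.9%, 71.0% and 35.7%.

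The origin recognition complex, whose 6 subunits mark the sites where replication can start, varied widely among its subunits. Orc1, the large ATPase subunit whose promoter is printed above, was at 3.68, 3.13, 6.47 and 5.98 FPKM, the lowest level of the 47 genes in every library. Its log2 ratio, knockout over wild type, was 0.68 without drug and 0.76 with drug. Orc6, a small subunit with a role in helicase loading, was at 27.1, 27.7, 43.6 and 39.4 FPKM, with ratios of 0.67 and 0.49. The other 4 subunits stayed under 1.5-fold. Orc3 was at 9.26, 9.63, 10.6 and 9.74 FPKM, so that the knockout ruxolitinib library differed from its wild-type partner by only 0.01 on the log2 scale. Orc4 was at 11.7, 11.3, 13.2 and 11.8 FPKM, with ratios of 0.17 and 0.06. Orc2 was at 17.2, 17.97, 23.4 and 20.6 FPKM and Orc5 at 9.78, 11.7, 13.99 and 14.2. Their ratios lay between, at 0.42 and 0.48 without drug and 0.19 and 0.25 with drug. The median of the 6 was 0.45 without drug and 0.22 with drug, the lowest of the 11 subcomplexes in both cases.

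Licensing factors, which bring the helicase to the origin, had the highest median log2 ratio of the 11 subcomplexes without drug, 0.90, and 0.63 with drug. Cdt1 (chromosome 8, 122568015 to 122573130, mm10) was at 16.3, 18.9, 31.3 and 33.2 FPKM. Both knockout values were thus well above both wild-type values, with log2 ratios of 0.90 without and 0.78 with drug. Cdc6 (chromosome 11, 98907889 to 98923942), the ATPase that works with the origin recognition complex, was at 4.62, 5.65, 9.46 and 9.29 FPKM, with ratios of 0.90 and 0.63. Gmnn encodes geminin, which binds Cdt1 and blocks a second round of licensing. This inhibitor was higher along with its target, at 42.0, 44.9, 68.6 and 65.6 FPKM, with ratios of 0.69 and 0.54.

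The MCM helicase was the most even of the larger subcomplexes. All 6 subunits were at least 1.5-fold higher in the knockout both without and with drug. Mcm2 was at 44.6, 54.1, 78.7 and 86.9 FPKM, Mcm4 at 35.8, 41.8, 59.6 and 65.6 and Mcm6 at 75.4, 93.3, 130.7 and 141.7. In each of these 3 genes the 4 libraries had the same order, the wild-type control lowest and the knockout ruxolitinib library highest. Mcm5 (chromosome 8, 75109509 to 75128439) was at 42.9, 51.0, 79.4 and 85.5 FPKM, and Mcm7 at 39.1, 48.9, 70.1 and 76.4. Mcm3 alone was not highest in the knockout ruxolitinib library, at 90.4, 99.99, 155.1 and 152.6 FPKM. The 6 log2 ratios without drug spanned only 0.72 (Mcm4) to 0.87 (Mcm5), and those with drug 0.60 (Mcm6) to 0.73 (Mcm5). Their levels, which FPKM sets per length, differed more than their ratios, from 35.8 to 90.4 FPKM in the wild-type control, although the proteins join in equal numbers in the ring. The locus of Mcm7 also holds Cops6 on the other strand, which was at 90.3, 81.6, 102.4 and 87.2 FPKM.

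Genes that activate the helicase had a median log2 ratio of 0.73 without and 0.58 with drug. Cdc45, which joins the MCM ring in the active helicase, was at 16.1, 17.5, 30.7 and 30 FPKM, with ratios of 0.89 and 0.74. Mcm10, which takes part in opening the origin, was at 10.5, 11.6, 19.1 and 18.4 FPKM. The 4 GINS subunits form 1 complex with Cdc45 and MCM, yet their ratios without drug ran from 0.38 in Gins4 to 0.74 in Gins1. Gins4 was at 27.1, 30.2, 35.5 and 35.6 FPKM and Gins1 at 10.4, 11.3, 18.04 and 18, with Gins3 at 5.06, 5.98, 8.57 and 8.71. Gins2, at 24.0, 26.9, 40.0 and 39.6 FPKM, had a ratio of 0.72 without drug, but the authors' deposited table gave it a q-value of 0.268. Its deposited locus spans 100210 bases and overlaps Gse1, and whether this bears on the q-value was not tested.

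Polymerase alpha and primase, which lay down the RNA and DNA primers, had medians of 0.61 and 0.57. The primase subunit Prim1 was at 23.3, 27.9, 44.0 and 45.5 FPKM, a ratio of 0.89 without drug and 0.68 with drug. Its partner Prim2 was at 16.2, 17.2, 25.6 and 26.9 FPKM, and the X-linked catalytic subunit Pola1 at 12.6, 14.3, 19.4 and 21.1. Pola2, the accessory subunit, had the smallest ratios of the 4, 0.51 and 0.34, at 26.4, 31.5, 38.1 and 40.2 FPKM. For all 4 genes both knockout values lay above both wild-type values, as they did for 28.2% of measured genes.

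The replicative polymerases delta and epsilon had medians of 0.71 without and 0.52 with drug. Pole2, a subunit of polymerase epsilon, was at 9.57, 10.9, 17.0 and 16.1 FPKM, and the catalytic subunit Pole at 7.62, 8.69, 13.1 and 14.2. Pold2, of polymerase delta, was at 21.7, 20.1, 37.0 and 32.3 FPKM, lower with drug than without in both genotypes. Pold3 had the smallest ratio of the 5, at 15.97, 19.3, 21.8 and 24.0 FPKM with 0.43 and 0.30. Pold1, the catalytic subunit of polymerase delta, was at 20.6, 23.7, 31.3 and 31.97 FPKM and lay just under the threshold, at 1.49-fold without drug. Chaf1b was at 1.49-fold as well, and Rfc5 and Pola1 lay just above it at 1.5-fold and 1.51-fold.

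The clamp Pcna, a ring that holds polymerases on DNA, was at 104.1, 112.3, 151.0 and 154.9 FPKM, with log2 ratios of 0.53 and 0.46. Of the 5 subunits of the clamp loader, Rfc4 had the highest ratio without drug, 0.70, at 18.04, 20.1, 30.03 and 27.4 FPKM. Rfc3 followed with 22.7, 25.7, 36.4 and 39.1 FPKM, and Rfc5 was at 25.8, 30.7, 39.2 and 40.5. Rfc1, the large subunit, was at 20.9, 24.0, 28.1 and 29.6 FPKM, with smaller ratios of 0.41 and 0.29. The q-value of Rfc4 in the authors' deposited table was 0.126 without drug, and its deposited locus overlaps Eif4a2. Loci of 14 of the 47 genes overlap a coding gene of another name. Their q-values without drug ran from 0.000746, as for Mcm7, to 0.599 for Orc3. Whether an overlap bears on a q-value was not tested.

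Rfc2 (chromosome 5, 134582690 to 134598328) went against the other 46 genes. It was at 228.8, 283.5, 198.9 and 257.4 FPKM, from 5.07 to 14.1 times the FPKM of another loader subunit in the same library. The log2 ratio, knockout over wild type, was -0.20 without and -0.14 with drug, and the drug ratio was 0.31 in wild type and 0.37 in knockout. Both ruxolitinib libraries lay above both control libraries, an order seen in 1 of the 47 genes and in 18.0% of measured genes. The deposited locus of Rfc2 ends 1694 bases short of Lat2, which lies on the other strand. In the GENCODE annotation Rfc2 runs further, to 134601805, and overlaps the 3′ end of Lat2 by 1784 bases. Lat2, an adaptor of the IgE receptor pathway of mast cells, was at 659.1, 696.0, 618.1 and 649.9 FPKM. Its genotype ratios were -0.09 without and -0.10 with drug, and its drug ratios 0.08 in wild type and 0.07 in knockout. Whether counting used strand is not known from the labels, and the part of Lat2 in the value of Rfc2 was not tested.

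Factors acting on the single strand, the lagging strand and new chromatin followed the same order of genotypes. Rpa2, a subunit of the single-strand binding protein, was at 28.3, 33.0, 45.8 and 47.4 FPKM, with log2 ratios of 0.67 and 0.51. Rpa1, the large subunit, was at 72.4, 82.4, 92.8 and 95.6 FPKM, with smaller ratios of 0.35 and 0.21. Fen1, which trims flaps of Okazaki fragments, was at 43.1, 47.6, 67.2 and 66.8 FPKM, and Lig1, which seals them, at 29.4, 35.8, 49.4 and 55.05. For both enzymes the 2 knockout values lay above the 2 wild-type values, an order that 28.2% of measured genes showed. Chaf1a and Chaf1b, which place histones on new DNA, were at 16.6, 18.5, 27.97 and 28.3 FPKM and at 56.9, 56.4, 85.3 and 78.95 FPKM.

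Enzymes that supply nucleotides were all at least 1.5-fold higher in the knockout without drug, with a median log2 ratio of 0.76. Tyms, which makes thymidylate, was at 18.9, 18.7, 35.4 and 33.5 FPKM, with ratios of 0.87 and 0.81. The salvage enzyme Tk1 was at 30.1, 36.7, 56.2 and 58.8 FPKM, with 0.88 and 0.66. Rrm1 and Rrm2 form ribonucleotide reductase, which makes deoxyribonucleotides. Rrm1 was at 68.0, 71.9, 109.5 and 106.2 FPKM and Rrm2 at 80.0, 83.7, 136.4 and 121.0. The dUTPase Dut, which keeps uracil out of DNA, was at 29.99, 31.4, 50.5 and 46.05 FPKM. The order of the 5 levels, Rrm2 highest and Tyms lowest, was the same in all 4 libraries.

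**Figure D3:**
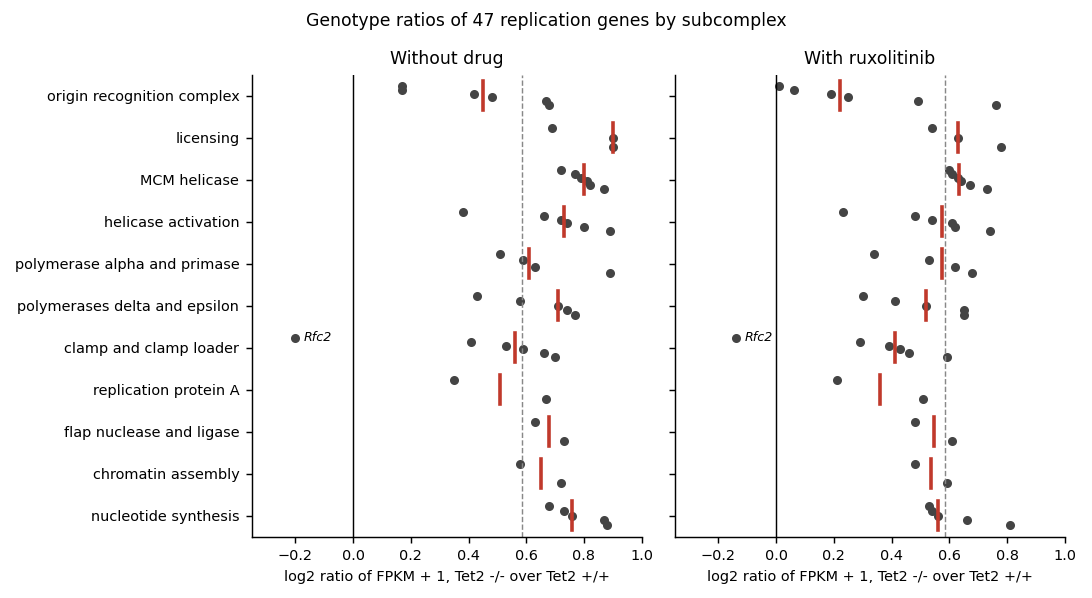
Log2 ratio of FPKM + 1, knockout over wild type, of each replication gene (points) by subcomplex, without drug and with ruxolitinib; red lines are subcomplex medians, the black line is 0 and the dashed line 1.5-fold. Medians without drug run from 0.45 (origin recognition complex) to 0.90 (licensing), those with drug from 0.22 to 0.64, and Rfc2 is the only point below 0 in either panel.

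With ruxolitinib, the knockout library again held the higher values for 46 of 47 genes, beside 50.2% of measured genes, mostly by smaller ratios. Of the 47 genes, 21 were at least 1.5-fold higher, beside 2.97% of measured genes, and 0 were as far lower, beside 3.34%. The median log2 ratio was 0.54, and the highest was that of Tyms at 0.81. All 21 were also at least 1.5-fold higher without drug, and a further 13 passed only without drug. The 6 MCM subunits, Cdt1, Cdc6, Cdc45, Prim1, Tk1 and Tyms were among the 21. A q-value of at most 0.05 in the authors' deposited table was given to 35 of the 47, all higher, beside 7.39% higher and 6.21% lower among genes tested. Rfc3 and Chaf1a lay just above the threshold at 1.5-fold and 1.51-fold, and Rrm1 and Gins2 just below it at 1.47-fold and 1.46-fold. The 2 genotype ratios share no library, and across the 47 genes their Pearson r was 0.94 and their Spearman rho 0.87, or 0.93 and 0.86 without Rfc2. Over all measured genes r was 0.34 and rho 0.80, and genes are not independent replicates.

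Counting error was small beside these ratios. From the estimated depth and annotated transcript lengths, the 47 genes rested on at least 299 fragments in a library. An exact binomial interval (Clopper-Pearson, 95%) of the FPKM ratio lay above 0 for 45 genes without drug and 44 with drug, and below 0 for 1, Rfc2, in both cases. For Cdt1 it ran from 0.85 to 1.03 on the log2 scale without drug, and for Orc4 from -0.03 to 0.39. The intervals are approximate and cover counting error only, not the spread between animals.

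In wild-type cells the ruxolitinib and control libraries differed little, and the small differences had mostly 1 sign. The drug library was higher for 42 of 47 genes, an order that 51.9% of measured genes showed, with a median log2 ratio of 0.17 beside 0.01 over all measured genes. None of the 47 was at least 1.5-fold higher or lower, beside 1.05% and 2.64% of measured genes. MCM subunits had the highest median of the subcomplexes, 0.26, and Rfc2 and Mcm7 the highest single ratios, 0.31 each. Licensing factors had a median of 0.20, while nucleotide synthesis genes had 0.07 and the origin recognition complex 0.04. The 5 genes that were lower were Orc1 at -0.18, Pold2 at -0.10, Orc4 at -0.04 and Tyms and Chaf1b at -0.01. With values rescaled to TPM, 44 of 47 genes were higher. In the authors' deposited table no gene of the 47 had a q-value of at most 0.05, beside 2.39% higher and 4.13% lower among the genes tested, and the lowest was 0.0939 for Mcm7.

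In knockout cells the drug and control libraries held nearly equal levels. The drug library was higher for 26 genes and lower for 21, with a median log2 ratio of 0.02, and 50.8% of measured genes were higher. With TPM, 30 of the 47 were higher. None of the 47 was at least 1.5-fold higher or lower, beside 1.67% and 2.2% of measured genes. Most subunits of the MCM helicase were slightly higher, with a median of 0.12, whereas Mcm3 was at -0.02. The origin recognition complex had a median of -0.13, with 5 of 6 genes lower, and nucleotide synthesis genes -0.08, with 4 of 5 lower, Rrm2 at -0.17 and Dut at -0.13. Rfc2 at 0.37 was the highest of the 47 and had the only q-value of at most 0.05 in the authors' deposited table, 0.0409, beside 4.85% higher and 4.73% lower among the genes tested.

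The drug ratio was lower in knockout than in wild type for 45 of 47 genes, beside 52.6% of measured genes. The median of this difference was -0.15 on the log2 scale, and by construction it equals the genotype ratio with drug less that without. The exceptions were Orc1 at 0.08 and Rfc2 at 0.06. Single differences were small, from -0.28 in Rfc4 to 0.08 in Orc1, and none reached 1.5-fold in either direction, beside 1.82% of measured genes above and 1.14% below. Cdc6 had -0.27, Pole2 and Rrm2 had -0.25 and -0.24, and Prim2 had -0.01. With 1 library per group this difference could not be tested.

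**Figure D4:**
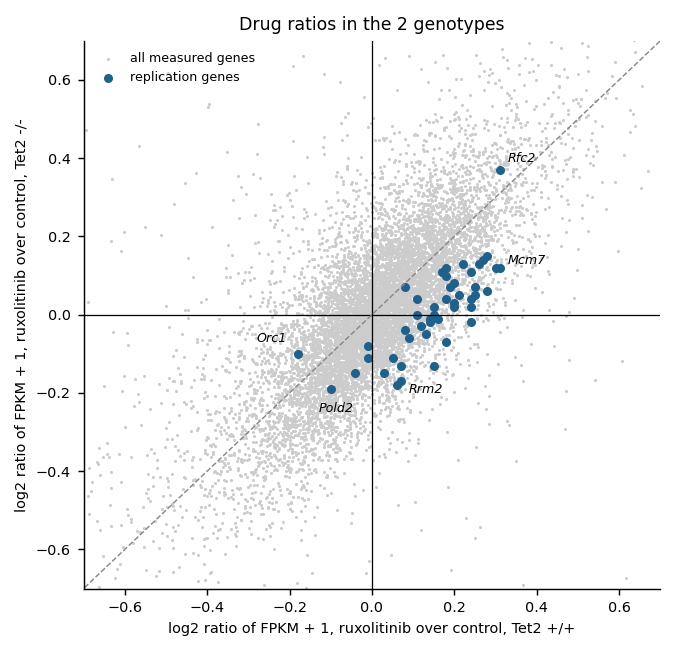
Log2 ratio of FPKM + 1, ruxolitinib over control, in wild-type cells (x axis) and knockout cells (y axis), for 47 replication genes (blue) and all measured genes (grey), each point 1 gene; the dashed line marks equal ratios and 442 measured genes lie outside the axes. The blue points lie below the dashed line for 45 of 47 genes, and their medians are 0.17 on the x axis and 0.02 on the y axis.

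Other genes of replication mostly showed the same order of genotypes, with a smaller median ratio. They were listed by role, but with earlier results of these data known. Of 53 such genes, all measured, 22 passed 1.5-fold upward in the knockout without drug and 0 downward, beside 3.88% and 5.06% of measured genes. With drug 10 and 0 did, beside 2.97% and 3.34%. Their medians were 0.50 and 0.38. Both without and with drug, 47 of the 53 were higher in the knockout and 6 lower, beside 50.4% and 50.2% of measured genes higher. Hells, a chromatin remodeller, was at 12.8, 14.6, 27.4 and 24.6 FPKM, and Shmt1, an enzyme of one-carbon metabolism, was at 9.28, 9.27, 18.9 and 14.8. Without drug their log2 ratios were 1.04 and 0.96, above the highest of the 47 genes, Cdt1 at 0.90. The nuclease Dna2, the checkpoint mediator Clspn and the histone chaperone Nasp had log2 ratios of 0.87, 0.86 and 0.86 without drug. With drug, Chtf18 was at 0.73, Hells at 0.72, Timeless at 0.69 and Clspn at 0.68, all among the 5 highest. The 5 lowest were the same genes in both cases. Pold4, a small subunit of polymerase delta, had -0.28 without drug and -0.14 with drug, and Samhd1, which breaks down deoxyribonucleotides, -0.25 and -0.17. Rrm2b, an alternative subunit of ribonucleotide reductase, had -0.09 and -0.21, Cul4a -0.07 and -0.05 and Cmpk1 -0.05 and -0.11. Rrm2b was at 4.93, 5.46, 4.58 and 4.58 FPKM, in contrast with its paralogue Rrm2.

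Genes that control entry into S phase were less uniform. Of 28 E2F and G1/S genes, 9 passed 1.5-fold upward and 2 downward without drug, beside 3.88% and 5.06% of measured genes. With drug 3 and 1 did, beside 2.97% and 3.34%. The medians of the 28 genes were 0.36 and 0.23. Ccne1, the cyclin that drives the start of S phase, was at 12.3, 12.7, 24.1 and 19.96 FPKM, and the activating factor E2f2 at 3.37, 4.35, 6.63 and 7.40. E2f1 had smaller ratios of 0.31 and 0.20. Of the G1 cyclins, Ccnd1 was higher in the knockout, at 7.29, 8.72, 13.9 and 20.02 FPKM. The others were lower, Ccnd2 at 247.1, 227.4, 144.5 and 128.8 FPKM and Ccnd3 at 195.3, 186.3, 129.1 and 131.4. Mitosis genes were all higher in the knockout, 23 of 23 in both cases, but by less than the 47 genes, with medians of 0.47 and 0.41. At least 1.5-fold higher were 5 and 1 of them, beside 3.88% and 2.97% of measured genes. Mki67, a marker of cycling cells, was at 37.1, 39.1, 51.5 and 57.0 FPKM. These genes are expressed by cycling cells, and the share of such cells was not measured, so its part in the replication gene ratios was not tested.

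**Figure D5:**
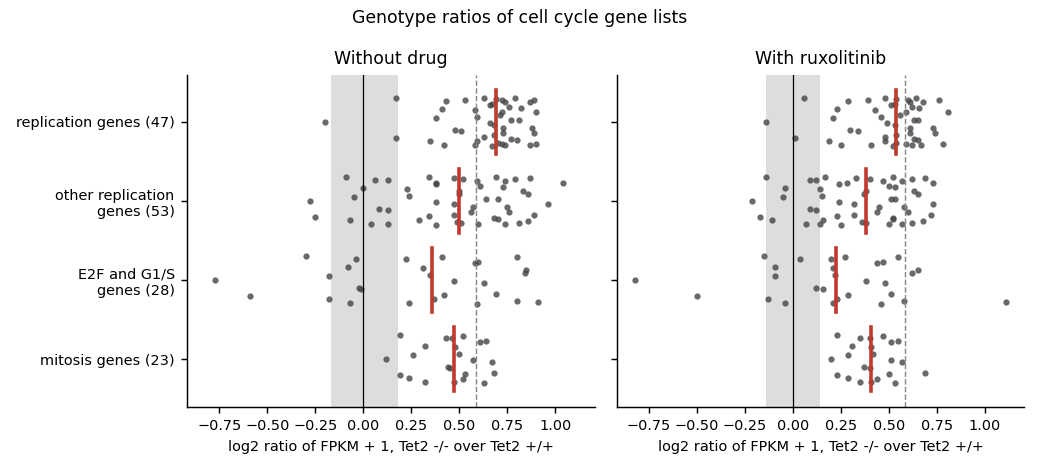
Log2 ratio of FPKM + 1, knockout over wild type, for each gene (points) of 4 lists without drug and with ruxolitinib; red lines are medians, the grey band spans the quartiles of all measured genes and the dashed line is 1.5-fold. Medians without drug are 0.69 for the 47 replication genes, 0.50 for other replication genes, 0.36 for E2F and G1/S genes and 0.47 for mitosis genes.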

How the data were processed

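Total RNA from 4 samples was depleted of ribosomal RNA and sequenced with Illumina protocols, per the labels' protocols. The submitters' processing notes name STAR, Cuffdiff and the build mm10. Tool versions, gene annotation and strand setting: not given in the sources used here. In the deposited tables the authors gave FPKM values per gene symbol, and a table of library pairs with log2 fold changes and q-values; 4 of its 6 comparisons were used and its 2 columns of library values were not.

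Members and lists were chosen with earlier results of these data known. Ratios were taken on log2(FPKM + 1) over genes averaging 1 FPKM or more, and 1.5-fold or more was counted. With 1 library per group nothing was tested. Values in every library were given for licensing and MCM genes, for the extremes of other subcomplexes and comparisons, and for further members by role. Of the other replication genes, the 5 highest and 5 lowest per genotype comparison were named, except 1 that is not reported here. Loci are those of the authors' deposited table, written 1-based; overlaps come from GENCODE vM21. Depth was estimated from steps between low values of genes with 1 transcript longer than 1500 bases, less 200 bases; between 76.7% and 81.9% of values set aside lay within 0.15 of a whole multiple. Fragments per gene used the median coding transcript length, so intervals are approximate. How closely the depth estimate matches the true depth was not tested. Alternatives were other pseudocounts, filters, centring, TPM and a 2-fold rule. Software was scipy 1.17.1, numpy 2.4.6 and pandas 2.3.3 under Python 3.11.15, with figures from matplotlib 3.10.9.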

Additional observations from a re-analysis of the deposited data

Results flagged for a closer look

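The drug ratio, ruxolitinib over control, had opposite signs in wild-type and knockout cells for 5 of the 11 subcomplexes, and for 4 with values rescaled to TPM, where helicase activation had 0.19 and 0.01. Differences of medians, knockout less wild type, are given here. The median log2 ratio was 0.04 and -0.13 for the origin recognition complex, a difference of -0.17, and 0.20 and -0.02 for licensing factors, a difference of -0.22. It was 0.14 and -0.01 for helicase activation, 0.07 and -0.08 for nucleotide synthesis and 0.07 and -0.05 for chromatin assembly, with differences of -0.15, -0.15 and -0.12. Among single genes, 16 of 47 had opposite signs, or 34.0%, beside 22.9% of measured genes. With TPM, 12 of these 16 still did, and Fen1, Gins1, Gins2 and Mcm3 did not. In 2 of the 16 the counting interval excluded 0 on both sides, Rfc4 with 0.15 and -0.13, a difference of -0.28, and Rrm1 with 0.08 and -0.04, a difference of -0.12. Each arm is 1 library, so the differences were not tested.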

How the results depend on the processing

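The counts at 1.5-fold depend on the threshold more than the ratios do. Under a 2-fold rule 0 genes counted as higher in the knockout without drug, in place of 34, and 0 with drug, in place of 21. With a pseudocount of 0.1 FPKM as well, chosen after seeing the data, these were 1, Cdc6, and 0. At 1.5-fold the count with drug was 10 with a pseudocount of 5 FPKM and 34 with values rescaled to TPM. That rescaling raised the median log2 ratio of all measured genes, knockout over wild type, by 0.15 without and 0.13 with drug; relative to it the 47 genes had medians of 0.72 and 0.55. It also turned the split of all measured genes without drug from 406 higher and 530 lower at 1.5-fold to 846 and 423, and with drug from 311 and 350 to 616 and 294. For ruxolitinib in knockout cells the median moved from 0.02 to 0.04 with TPM and, chosen after seeing the data, to 0.03 over the 32 genes left without Rfc2 and loci that overlap another coding gene. Those 32 genes had medians of 0.68 and 0.54 for the knockout without and with drug. The other 112 values of counts and medians lay within 1.5 times their main value, many of them counts of 0 that stayed at 0. All 47 genes pass the main filter, so leaving it out could not change their values. No sign of a genotype ratio changed under any setting for any of the 47 genes. Pseudocounts and filters cannot change the sign of a ratio, so only centring and TPM could have done so. Signs of drug ratios near 0 did change with TPM, in knockout for Fen1, Gins1, Gins2 and Mcm3 and in wild type for Chaf1b and Tyms, so that 30 in place of 26 and 44 in place of 42 genes were higher with drug. No paired analysis was possible because each group has 1 library. Depth limits little here, since each of the 47 genes rested on an estimated 299 fragments or more in every library; the single library per group limits every comparison.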
